A study of Mus musculus with 2 samples.

Results

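Transitional B cells are newly formed B lymphocytes that have left the bone marrow and finish their maturation in the spleen. In a droplet single-cell RNA dataset of mouse spleen they were picked out by counts of unique molecular identifiers (UMIs, each standing for 1 captured RNA molecule). A retained cell held 200 to 6000 detected genes and under 10% mitochondrial UMIs. A transitional-gated cell held at least 2 UMIs of Cd79a, none of Cd3d or Cd3e, at least 2 of Vpreb3 and at least 1 of Ms4a1. It held none of Fcer2a, Cr2, Fcrl5, Rag1, Rag2, Igll1 or Dntt, and UMIs in at most 2 of 6 cell cycle genes (Mki67, Top2a, Ube2c, Birc5, Cdk1 and Ccna2). This left 1674 of 25289 retained cells, 1070 of 12610 in the CKO library and 604 of 12679 in the WT library. The gate was built on measured values, so the levels of its own genes are given as a description.

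The study compared spleen immune cells of an RPA1 conditional knockout (CKO) with those of WT mice, both C57BL/6, with 1 10x Genomics 3′ library per genotype. RPA1 is the large subunit of the complex that coats single-stranded DNA during replication and repair. The series title places the question in T cells, while the labels name neither the Cre driver, the deleted exons, the age nor the number of animals behind each library. With 1 library per genotype there was no test between genotypes, and the intervals below cover counting error only.

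Immature B cells arrive in the spleen with high surface IgM, high CD24 and the receptor CD93, and lose CD93 as they mature. Maturing follicular cells gain IgD, CD23 (Fcer2a), CD21 (Cr2) and class II MHC, while a smaller group becomes marginal zone cells with high CD21 and Fcrl5. Vpreb3 encodes a surrogate light chain-like protein that stays inside B lineage cells, Ms4a1 encodes CD20, Spib an Ets family transcription factor and Ly6d a surface protein of B lineage commitment. In the GENCODE vM21 annotation of mm10, Vpreb3 lies at chr10:75943057-75949657 (+), Ms4a1 at chr19:11249675-11266241 (-), Spib at chr7:44525993-44532071 (-), Ly6d at chr15:74762056-74763620 (-) and Cd93 at chr2:148436640-148443563 (-). Since the gate asks for no Fcer2a UMI, transitional cells that already carry CD23 fall outside it. Those with at least 2 Fcer2a UMIs can fall among the follicular-gated cells used for comparison below, for which no Vpreb3 condition was set.

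The promoter sequences of Vpreb3 and Spib are shown because the first gene defines the gate and the second is its transcription factor marker. They are the 300 bases from 250 before to 50 after the RefSeq start in GRCm38.p6, 5′ to 3′ on the gene's strand, at chr10:75948050-75948349 (+) and chr7:44532022-44532321 (-). Capitals mark a match on either strand to the octamer ATGCAAAT, the element read by Pou2f2 with its coactivator Pou2af1, or to the EBF core CCCNNGGG, read by Ebf1. The Vpreb3 window lies inside the longer GENCODE gene. RefSeq promoters were matched for 10 of the 17 genes looked for.
Vpreb3: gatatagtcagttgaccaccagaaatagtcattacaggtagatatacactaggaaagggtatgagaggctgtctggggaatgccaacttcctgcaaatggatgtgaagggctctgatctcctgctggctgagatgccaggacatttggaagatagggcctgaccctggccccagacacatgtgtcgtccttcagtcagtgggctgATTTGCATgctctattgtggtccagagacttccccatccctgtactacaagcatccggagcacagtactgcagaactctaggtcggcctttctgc
Spib: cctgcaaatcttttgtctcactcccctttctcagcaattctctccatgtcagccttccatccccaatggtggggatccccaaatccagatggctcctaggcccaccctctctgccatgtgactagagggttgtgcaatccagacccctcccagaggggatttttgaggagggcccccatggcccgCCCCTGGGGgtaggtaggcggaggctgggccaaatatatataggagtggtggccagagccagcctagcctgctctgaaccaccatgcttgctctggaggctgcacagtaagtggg
The octamer stood in 1.74% of 32851 mouse promoters of this length and the EBF core in 13.7%. In the Spib window 2 overlapping matches of the EBF core share the run in capitals. An E2A E-box, an E-box with a GC centre and a PU box were also looked for and matched neither window. These matches are a description of the letters, found among several motifs searched. The factors' own genes were measured in the gated cells, Ebf1 at 1991 CPM (UMIs of the gene per 1000000 UMIs summed over the cells) in CKO and 1761 CPM in WT, and Pou2af1 at 288 CPM in CKO and 258 CPM in WT. Pou2f2 stood at 731 CPM in CKO and 686 CPM in WT.

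The gated cells held 4479884 UMIs in the CKO library and 2746790 in the WT library, with a median of 3686 and 3966 UMIs per cell. Follicular-gated cells were deeper, with a median of 4516 UMIs in CKO and 4694 in WT. The libraries shared 36 cell barcodes, of which 6 were gated in CKO, 1 in WT and none in both. Rpa1 had 114 UMIs in the gated cells of CKO and 80 in those of WT, that is 25.4 and 29.1 CPM, a CKO over WT ratio of 0.874 (95% interval 0.651 to 1.18). In T-gated cells (at least 2 UMIs of Cd3d and Cd3e together and no Cd79a) Rpa1 stood at 34.1 CPM in CKO and 42.9 CPM in WT, a ratio of 0.796 (0.671 to 0.938). Where the deleted part lies relative to the 3′ tags is not known from the labels, so these counts do not check the genotype. Some gated barcodes also carried RNA of other cell types. Barcodes with at least 10 UMIs of a T, NK, myeloid, neutrophil or erythroid list, or at least 20 of Jchain, are called mixed below, a definition made after the data were seen. They were 34 of 1070 gated cells in CKO (3.18%) and 9 of 604 in WT (1.49%), with a median of 8437 and 20266 UMIs. Scrublet marked 20 of these 34 CKO barcodes and 4 of the 9 WT barcodes as doublets. Counts over all genes and the genotype comparison are given with and without them.

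The gate took a larger share of the CKO spleen than of the WT spleen. It held 8.49% of retained cells in CKO (95% Clopper-Pearson interval 8.0 to 8.99%) and 4.76% in WT (4.40 to 5.15%), a ratio of 1.78 (1.61 to 1.97). The retained cells of CKO held 724 T-gated cells and those of WT 3381, so this denominator moved with the T cells. Among B-gated cells (Cd79a at least 2 and no Cd3d or Cd3e) the share was 10.9% of 9834 in CKO (10.3 to 11.5%) and 8.42% of 7176 in WT (7.78 to 9.08%), a ratio of 1.29 (1.17 to 1.43). Without mixed barcodes the share of B-gated cells was 10.8% in CKO and 8.45% in WT. Gated cells with exactly 2 Vpreb3 UMIs were 1.21% of B-gated cells in CKO and 1.35% in WT, a ratio of 0.895 (0.679 to 1.18). With at least 3 Vpreb3 UMIs asked for, the share was 9.67% in CKO and 7.07% in WT, a ratio of 1.37. The larger CKO share thus lay in cells with 3 or more Vpreb3 UMIs. Gated cells that also held a Cd93 UMI were 1.66% of B-gated cells in CKO and 1.03% in WT, a ratio of 1.61 (1.21 to 2.15). The spread between mice is not in these intervals.

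The classes on either side of the transitional stage were also counted as shares of B-gated cells. Precursor-gated cells were B-gated cells with at least 2 Vpreb3 UMIs and a UMI of Rag1, Rag2, Igll1 or Dntt. No Ms4a1 or cell cycle condition was set for them. They made up 1.14% of B-gated cells in CKO (112 cells, 0.939 to 1.37%) and 0.446% in WT (32 cells, 0.305 to 0.629%), a ratio of 2.55 (1.71 to 3.91). Follicular-gated cells (Fcer2a at least 2, no Fcrl5) were 48.6% in CKO and 51.5% in WT, and marginal zone-gated cells (Cr2 and Fcrl5, no Fcer2a) 3.32% in CKO and 3.54% in WT. The early classes, both gated on at least 2 Vpreb3 UMIs, thus stood higher in CKO and follicular cells slightly lower, while the marginal zone intervals overlapped. For every 100 follicular-gated cells there were 22.4 transitional-gated cells in CKO and 16.3 in WT.

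**Figure D1:**
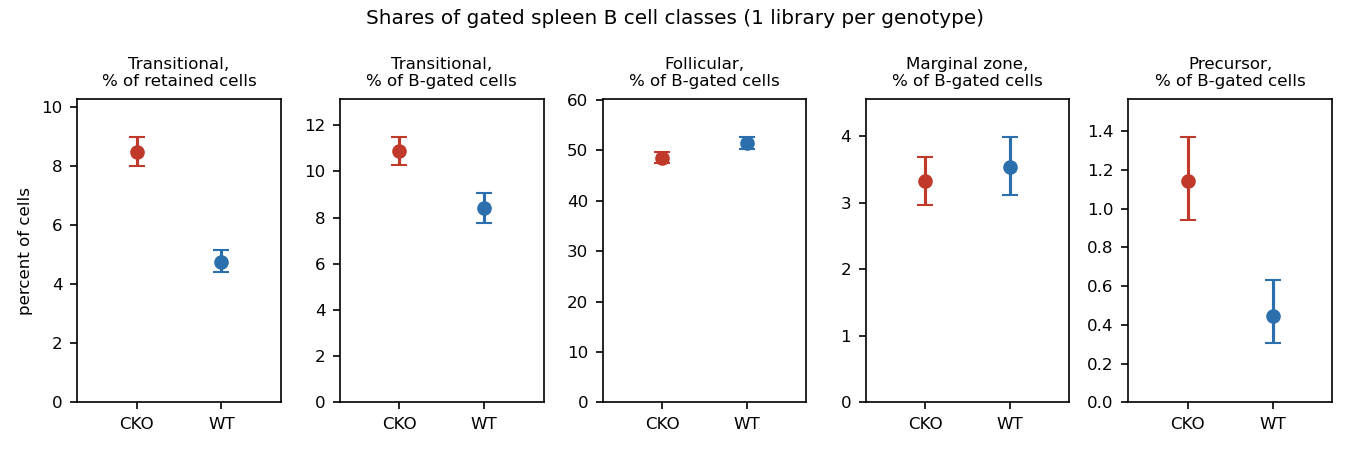
Shares of gated B cell classes in the CKO and WT library, in percent of retained cells (first panel) or of B-gated cells (other panels). Points are the shares and bars their exact 95% Clopper-Pearson intervals; transitional cells were 10.9% of B-gated cells in CKO and 8.42% in WT.

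Of the B-gated cells, 5232 in CKO and 3724 in WT held at least 2 Vpreb3 UMIs, and follicular-gated cells also carried Vpreb3, at 465 CPM in CKO and 448 CPM in WT. Removing cells with Fcer2a left 1685 in CKO and 1059 in WT, and removing those with Cr2 left 1152 in CKO and 643 in WT. The Fcer2a step was thus the largest cut after Vpreb3. The gate held per cell a median of 6 Vpreb3 UMIs in CKO and 5 in WT, with a highest cell of 37 in CKO and 28 in WT.

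The Vpreb3 threshold ran through a continuum. Cells that met every other condition numbered 119 in CKO and 97 in WT with exactly 2 Vpreb3 UMIs, just inside, and 173 in CKO and 129 in WT with exactly 1, just outside. Just inside, Cd24a, the heat stable antigen of immature B cells, stood at 486 CPM in CKO and 377 CPM in WT, against 386 CPM in CKO and 242 CPM in WT just outside. Cd93 stood inside at 27.2 CPM in CKO (14 UMIs) and 23.3 CPM in WT (11 UMIs), against 15.8 CPM in CKO (13 UMIs) and 10.9 CPM in WT (7 UMIs) outside, with intervals that overlapped. In Cd24a the cells next to the threshold therefore differed less from each other than the gated cells did from follicular cells.

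The 3 given markers that the gate did not use were higher in transitional-gated than in follicular-gated cells of both libraries. These contrasts describe cells that were chosen from the same counts, and no test was made. Spib stood at 481 CPM in transitional and 204 CPM in follicular cells of CKO, a ratio of 2.36 (2.24 to 2.48), and at 396 and 159 CPM in WT, a ratio of 2.49 (2.32 to 2.67). Ly6d stood at 5090 and 2447 CPM in CKO and at 4554 and 2213 CPM in WT, 2.08 and 2.06 times as high. Cd93 stood at 47.5 and 14.4 CPM in CKO, a ratio of 3.30 (2.78 to 3.91), and at 34.9 and 12.2 CPM in WT, a ratio of 2.86 (2.23 to 3.63). Against marginal zone-gated cells the Cd93 ratio was 12.8 in CKO and 10.5 in WT. All 3 markers outside the gate thus stood above the follicular level. Precursor-gated cells were not part of this comparison, so it does not set the gated cells apart from an earlier stage.

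Shares of cells with a UMI were compared after every cell was thinned to 2000 UMIs, which left out 8 gated cells in CKO and 5 in WT. Spib was then seen in 57.7% of transitional cells in CKO (54.7 to 60.7%) and 51.6% in WT (47.5 to 55.7%), against 30.6% of follicular cells in CKO and 25.4% in WT. T-gated cells, which should lack it, showed Spib in 0.277% in CKO and 0.356% in WT, at a median depth before thinning of 6143 and 6829 UMIs. Cd93 was seen in 8.76% of transitional cells in CKO and 7.51% in WT, against 2.60% of follicular cells in CKO and 2.20% in WT, with 0.277% and 0.208% of T-gated cells. Without thinning, Cd93 was seen in 15.2% of transitional cells in CKO and 12.3% in WT. Leaving out mixed barcodes gave thinned shares of transitional cells of 58.7% in CKO and 52.2% in WT for Spib, and of 8.95% and 7.46% for Cd93. Most gated cells thus gave no Cd93 UMI at this depth.

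Across all genes, 404 of 9951 measured genes (4.06%) were at least 1.5-fold higher in transitional than in follicular cells of both libraries, and 331 (3.33%) at least 1.5-fold lower. A gene counted as measured with at least 50 UMIs in each library. Without mixed barcodes the counts were 435 higher (4.43%) and 355 lower (3.62%). These shares are the background for the list counts against follicular cells below. NK markers summed to 650 CPM in transitional and 533 CPM in follicular cells of CKO, and to 213 and 239 CPM in those of WT. Neutrophil markers summed to 1221 and 543 CPM in CKO and to 40.4 and 500 CPM in WT, and the part of such RNA in the contrast was not tested.

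Genes of the early B lineage stood higher in the transitional cells. Of 10 measured genes of that list, 7 were past 1.5-fold higher in both libraries and none lower, with a median log2 ratio of 1.09 in CKO and 1.22 in WT, against 0.05 and 0.03 over all measured genes. Cd24a stood at 745 CPM in transitional and 320 CPM in follicular cells of CKO, and at 665 and 275 CPM in those of WT. Sox4, a transcription factor of progenitor cells, was 1.98 times as high in CKO and 2.55 times in WT. Myb, another progenitor factor, was 2.39 and 2.92 times as high. Tifa, an adaptor of NF-kappaB signalling, was 2.97 times as high in CKO and 2.67 times in WT. Tcf3, which encodes the E2A factors, was 1.81 and 1.64 times as high. Ebf1 was 1.59 times as high in CKO and 1.40 times in WT, the WT value short of the threshold.

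The genes with the most secure increase over follicular cells were led by Cplx2, which encodes complexin, a regulator of vesicle fusion. Cplx2 stood at 49.8 CPM in transitional and 7.80 CPM in follicular cells of CKO, and at 41.9 and 3.46 CPM in those of WT, a ratio of 6.38 (5.25 to 7.76) in CKO and 12.1 (8.91 to 16.6) in WT. Serinc5, a membrane protein that restricts retroviruses, was 6.78 and 6.11 times as high. Akap12, a scaffold of protein kinases A and C, stood at 222 and 46.6 CPM in CKO and at 188 and 31.9 CPM in WT. Fam129c, a gene known for its expression in B cells, was 4.27 times as high in CKO and 5.08 times in WT. Eaf2, a transcription elongation factor, was 4.73 and 5.95 times as high. Coq7, an enzyme of ubiquinone synthesis, was 5.07 and 4.66 times as high, and Dusp10, a phosphatase of stress kinases, 4.88 and 4.32 times. Atp1b1, the beta subunit of the sodium pump, stood at 138 and 38.8 CPM in CKO and at 99.0 and 26.1 CPM in WT. Akap17b, Mgst1 and Pafah1b3 completed the leading set with ratios of 3.61 to 7.60. The set also held Gh, the pituitary growth hormone gene, at 29.5 and 4.27 CPM in CKO and 25.1 and 3.81 CPM in WT. In the GENCODE vM21 annotation of mm10, Gh (chr11:106300271-106301865) lies downstream of Cd79b (chr11:106311341-106314762) on the same strand. Cd79b, the second chain of the B cell receptor signalling unit, was 1.63 and 1.56 times as high, and whether the Gh counts came from Gh transcripts was not tested.

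Some genes of follicular maturation stood lower. Of 14 measured genes of that list 3 were past 1.5-fold lower in both libraries and none higher, with a median log2 ratio of -0.41 in each library. Ighd, the IgD heavy chain, stood at 461 CPM in transitional and 1051 CPM in follicular cells of CKO, and at 656 and 1293 CPM in those of WT, a ratio of 0.439 and 0.507. Gpr183, the oxysterol receptor that positions B cells in the spleen, was at 0.376 of the follicular level in CKO and 0.468 in WT. Klf2, a transcription factor of quiescence and trafficking, went the other way at 1.45 in CKO and 1.51 in WT. Tnfrsf13c, the receptor for the survival factor BAFF, was at 1.38 and 1.34. The median over all measured genes was 0.05 in CKO and 0.03 in WT. The list median was therefore lower than that, while single members went the other way.

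Class II MHC genes were lower in transitional cells, 6 of 11 measured members past 1.5-fold in both libraries and none higher, with median log2 ratios of -0.67 in CKO and -0.70 in WT. H2-Aa stood at 1789 CPM in transitional and 3580 CPM in follicular cells of CKO, a ratio of 0.50 (0.488 to 0.511), and at 2345 and 4270 CPM in those of WT, a ratio of 0.549 (0.535 to 0.563). H2-Ab1 and H2-Eb1 were at 0.564 and 0.525 in CKO and at 0.617 and 0.554 in WT. Ciita, the master regulator of class II genes, was at 0.584 in CKO and 0.540 in WT. Cd74, the invariant chain, was at 0.896 and 0.888. H2-Aa, H2-Ab1 and H2-Eb1 were thus further from the follicular level than Cd74.

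Of 6 measured BCL2 family survival genes 3 were lower and none higher, and without mixed barcodes Bcl2l1, which encodes BCL-XL, was higher at 1.69 in CKO and 1.67 in WT. Bcl2 stood at 58.9 CPM in transitional and 186 CPM in follicular cells of CKO, and at 81.2 and 180 CPM in those of WT, a ratio of 0.317 (0.279 to 0.359) in CKO and 0.452 (0.393 to 0.517) in WT. Bcl2a1b and Bcl2a1d, near-identical copies of the A1 gene whose reads may be split, were at 0.434 and 0.460 in CKO and at 0.255 and 0.261 in WT. Mcl1, a short-lived survival protein of the same family, was at 1.36 and 1.34. Bmf, a pro-apoptotic member of the wider family, was 1.86 times as high in CKO and 1.78 times in WT.

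The genes with the most secure decrease were led by Rapgef4, a cAMP-sensing exchange factor for Rap GTPases, at 3.57 CPM in transitional and 23.3 CPM in follicular cells of CKO and at 4.73 and 26.0 CPM in those of WT. Ccr6, a chemokine receptor of mature B cells, was at 0.230 of the follicular level in CKO and 0.285 in WT. Icosl, the ligand of the T cell costimulator ICOS, stood at 21.7 and 99.0 CPM in CKO and at 30.9 and 97.8 CPM in WT. Gpr174, a lysophosphatidylserine receptor, was at 0.237 and 0.312, and H2-Eb2, a class II-related gene, at 0.253 and 0.310. Gimap4, a GTPase of lymphocyte survival, stood at 46.2 and 189 CPM in CKO and at 83.7 and 227 CPM in WT. Rflnb, Rasgef1b, Setbp1, Stat4 and Pcp4 had ratios of 0.177 to 0.307 across the libraries.

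**Figure D2:**
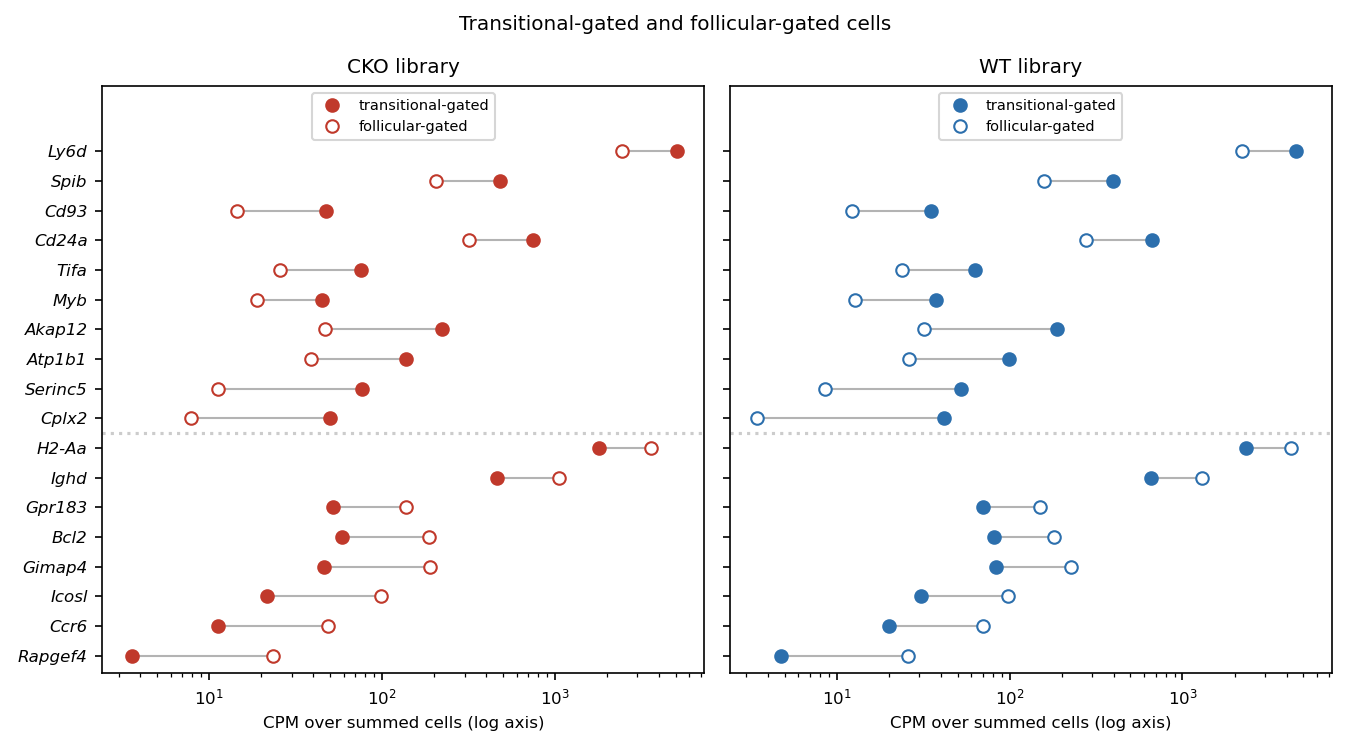
Levels of 18 genes in transitional-gated (filled) and follicular-gated (open) cells, in CPM over summed cells on a log axis, for the CKO library on the left and the WT library on the right. Genes above the dotted line are higher in transitional cells of both libraries and genes below it lower, for example Cd93 at 47.5 and 14.4 CPM in CKO.

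Of 33 measured type I interferon response genes 10 were past 1.5-fold higher in transitional cells of both libraries and none lower, with a median log2 ratio of 0.62 in CKO and 0.31 in WT. Ifi27l2a was the most abundant of them, at 1579 CPM in transitional cells of CKO and 1355 CPM in those of WT, 1.92 and 2.01 times the follicular level. Rtp4 was 2.33 and 2.04 times as high and Bst2, the antiviral tetherin, 1.59 and 1.84 times. Of 18 immediate early genes 4 were lower (Myc, Cd83, Egr3 and Dusp1) and none higher, with Myc at 0.388 of the follicular level in CKO and 0.369 in WT, and without mixed barcodes Nr4a1 was lower too. Of 22 genes of B cell receptor signalling 3 were higher, Cd79b, Cd72 and Siglecg, the last of which encodes an inhibitory receptor and stood at 1.80 and 1.71, and without mixed barcodes the inhibitory Fc receptor gene Fcgr2b was also higher. Of 24 B cell transcription factors 3 were higher (Spib, Tcf3 and Zeb2) and 2 lower (Mef2c and Bcl6). None of 15 measured genes of the RPA complex and ATR checkpoint passed 1.5-fold in both libraries, but Hus1 was lower without mixed barcodes. Of 28 replication genes 1 passed, Rfc3, a subunit of the sliding clamp loader. Over all measured genes 4.06% were higher and 3.33% lower in both libraries, so the RPA and replication counts were near that background.

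Against marginal zone-gated cells the contrast was wider, with 879 of 7545 measured genes (11.7%) at least 1.5-fold higher and 466 (6.18%) lower in both libraries, and 924 (12.4%) and 463 (6.20%) of 7471 without mixed barcodes. Of 15 measured marginal zone genes 13 were lower and none higher, with a median log2 ratio of -2.13 in CKO and -2.12 in WT. Dtx1, a target of Notch signalling, stood at 30.8 CPM in transitional and 314 CPM in marginal zone cells of CKO, and at 27.3 and 297 CPM in those of WT. S1pr3, a sphingosine phosphate receptor, was at 0.0821 and 0.0747 of the marginal zone level. Bach2, a repressor of plasma cell fate, was 8.81 times as high in transitional cells of CKO and 7.88 times in those of WT, and Klf2 5.90 and 7.11 times. Marginal zone cells were the deeper class, with a median of 8396 UMIs in CKO and 8682 in WT.

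The transitional cells were not uniform, and the gated cells were sorted by their Vpreb3 count after thinning to 2000 UMIs and without mixed barcodes. Of 1028 such cells in CKO and 590 in WT, 970 and 528 kept a Vpreb3 UMI, and the others were left out of the bins. Cells with 1 to 2, 3 to 4 and 5 or more Vpreb3 UMIs numbered 336, 290 and 344 in CKO and 226, 140 and 162 in WT. From the low to the high bin Cd24a stood at 564, 840 and 1003 CPM in CKO and at 518, 800 and 1037 CPM in WT. Akap12 stood at 168, 257 and 347 CPM in CKO and at 137, 189 and 318 CPM in WT. Cd93 stood at 41.7, 50 and 72.7 CPM in CKO and at 31.0, 46.4 and 58.6 CPM in WT, with intervals that overlapped between all bins. Cd24a and Akap12 thus stood higher where Vpreb3 was higher, in each library, while for Cd93 the order was within counting error.

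The maturation genes ran the other way along the same bins. H2-Aa stood at 2403, 1724 and 1094 CPM in CKO and at 2916, 2443 and 1617 CPM in WT. Ighd stood at 640, 472 and 307 CPM in CKO and at 843, 621 and 444 CPM in WT. In each bin H2-Aa and Ighd were lower in CKO than in WT. Bcl2 stood at 61.0, 27.6 and 18.9 CPM in CKO and at 81.9, 57.1 and 3.09 CPM in WT, the last from 1 UMI. Klf2 and Tnfrsf13c did not decline along the bins, with Tnfrsf13c at 445, 579 and 565 CPM in CKO and at 442, 554 and 556 CPM in WT.

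**Figure D3:**
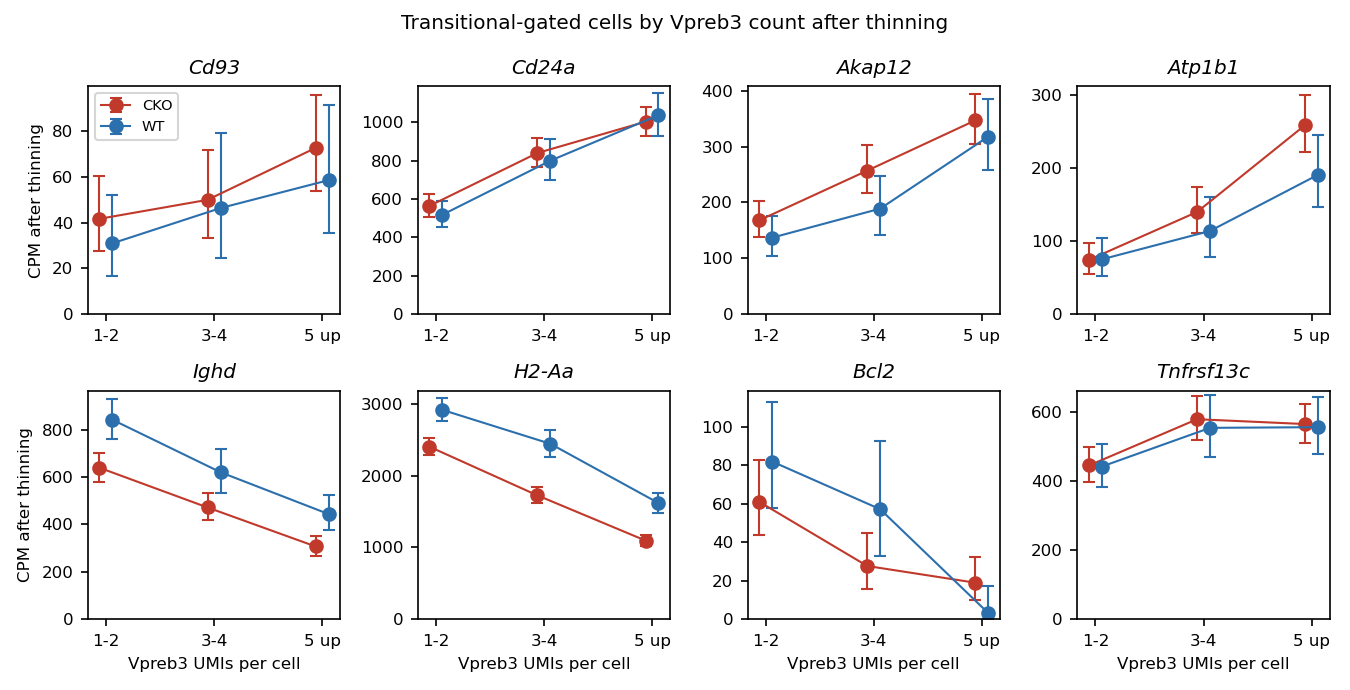
Levels of 8 genes in transitional-gated cells grouped by their Vpreb3 UMIs after each cell was thinned to 2000 UMIs, without mixed barcodes. Points are CPM over the summed cells of a bin with exact 95% Poisson intervals, CKO in red and WT in blue; Cd24a, Akap12 and Atp1b1 climb from left to right while Ighd and H2-Aa decline.

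Splitting the gated cells by Cd93 gave a second axis that the gate had not used. Cells with a Cd93 UMI were 163 in CKO and 74 in WT, and their median depth was 3823 and 3946 UMIs, against 3680 and 3966 UMIs for cells with none. Of 5849 measured genes 20 (0.342%) were at least 1.5-fold higher in Cd93-positive cells of both libraries and 67 (1.15%) lower, and without mixed barcodes 28 (0.488%) of 5732 were higher and 57 (0.994%) lower. Apoe, the apolipoprotein of lipid transport, led the higher genes without mixed barcodes, at 72.8 CPM in Cd93-positive and 28.7 CPM in Cd93-negative cells of CKO, and at 264 and 117 CPM in those of WT. With mixed barcodes its ratio was 1.28 in CKO and 2.08 in WT. Single cells held a sizable part of the Apoe UMIs of each library, as given below, and their part in this split was not tested. After thinning, Apoe was seen in fewer transitional than follicular cells, 4.33% against 15.5% in CKO and 6.68% against 18.5% in WT. Myb stood at 90.6 CPM in Cd93-positive and 36.6 CPM in Cd93-negative cells of CKO, a ratio of 2.48 (1.81 to 3.35), and at 66.9 and 32.9 CPM in those of WT, a ratio of 2.04 (1.24 to 3.23). Atp1b1 was 1.75 times as high in CKO and 2.60 times in WT, and Tifa 1.51 and 1.6 times. Lmo4, a LIM domain cofactor, was 1.54 and 1.92 times as high, and Pdzd2, Cecr2, Sik3, Myl4 and Cplx2 were up to 2.79 times as high. Lower in Cd93-positive cells were Trim7, at 0.374 in CKO and 0.334 in WT, Pxdc1, Odc1, B4galnt1 and Gimap4. Ly6c2 was at 0.247 in CKO and 0.581 in WT, but at 1.66 in WT without mixed barcodes. Runx3, a transcription factor of lymphocyte differentiation, was at 0.474 and 0.436.

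Class II MHC genes followed the Cd93 split in the same direction as the stage contrast, with a median log2 ratio of -0.34 in CKO and -0.48 in WT over 11 measured members, against 0.01 and -0.03 over all measured genes, though only 1 member passed 1.5-fold. H2-Aa stood at 1377 CPM in Cd93-positive and 1866 CPM in Cd93-negative cells of CKO, and at 1616 and 2460 CPM in those of WT. Bcl2 was at 0.736 (0.492 to 1.07) in CKO and 1.22 (0.831 to 1.75) in WT, so it gave no common direction along this axis.

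The immunoglobulin chains set transitional cells apart from follicular cells without mixed barcodes. Ighm UMIs, of the mu chain, outnumbered Ighd UMIs 12.9 to 1 in transitional cells of CKO and 8.74 to 1 in those of WT, against 3.44 and 2.57 to 1 in follicular cells and 13.9 and 10.4 to 1 in marginal zone cells. More lambda than kappa constant UMIs were found in 27.6% of transitional cells in CKO (24.9 to 30.4%) and 26.1% in WT (22.6 to 29.8%). In follicular cells the share was 16.8% in CKO (15.7 to 17.9%) and 16.1% in WT (14.9 to 17.3%), and in marginal zone cells 30.1% and 26.2%. Kappa-dominant transitional cells still held a median of 24.0 lambda UMIs in CKO and 26.5 in WT, and lambda-dominant cells 76.0 and 78.0. Iglc1, Iglc2 and Iglc3 are near-identical copies, so their sum was used and the level of each is uncertain. Ighm was also seen after thinning in 35.6% of T-gated cells in CKO and 42.0% in WT, which gives the background of free Ighm RNA in these libraries.

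**Figure D4:**
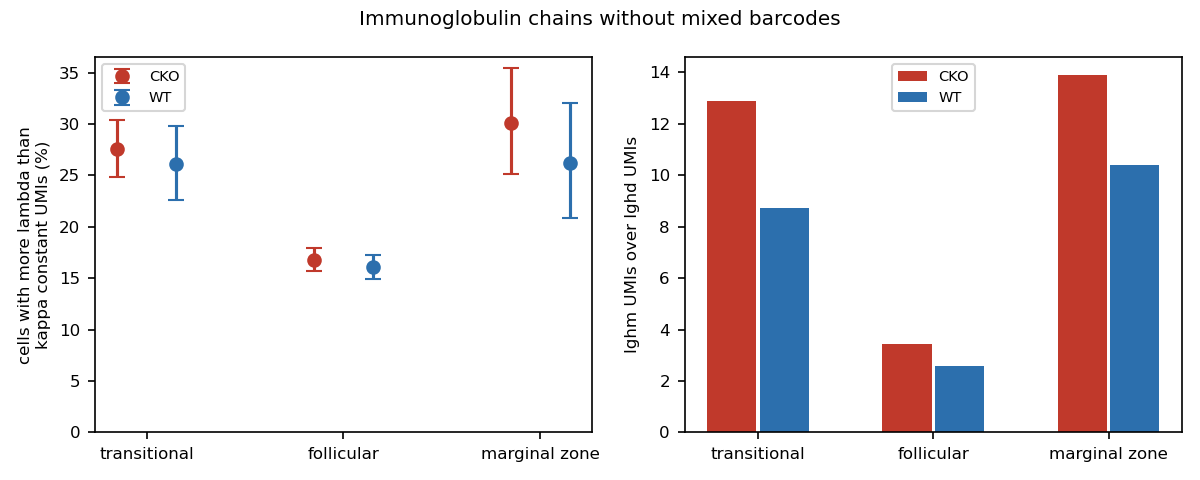
Immunoglobulin chain use in transitional, follicular and marginal zone-gated cells of the CKO (red) and WT (blue) library, without mixed barcodes. The left panel gives the percent of cells with more lambda than kappa constant UMIs with exact 95% intervals, highest in the transitional and marginal zone classes, and the right panel the ratio of summed Ighm to Ighd UMIs, for example 12.9 in CKO and 8.74 in WT transitional cells.

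Between genotypes, no given marker, follicular maturation gene or class II gene of the transitional cells was past 1.5-fold. Of the markers that the gate did not use, Spib stood at 481 CPM in CKO and 396 CPM in WT, a ratio of 1.22 (1.13 to 1.31), and Ly6d at 5090 and 4554 CPM, a ratio of 1.12 (1.09 to 1.14). Cd93 stood at 47.5 CPM in CKO and 34.9 CPM in WT, a ratio of 1.36 (1.06 to 1.75). The 14 follicular maturation genes had a median of -0.17 and the 11 class II genes of -0.20, against 0.06 over all measured genes. Without mixed barcodes the medians were -0.17 and -0.21, against 0.03, and among cells with a Cd93 UMI they were -0.02 and -0.06, against 0.08. H2-Aa was at 0.763 in CKO relative to WT and Ighd at 0.703, and the same ratios among follicular cells were 0.838 and 0.812. Whether the 2 classes differ in these ratios was not tested.

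Over all genes, 332 of 8287 (4.01%) with at least 50 summed UMIs were at least 1.5-fold higher in CKO than in WT and 158 (1.91%) lower. With median-of-ratios size factors the split was 258 higher and 208 lower, so that the share of higher genes was 55.4% in place of 67.8%. Without mixed barcodes, 218 of 8053 (2.71%) were higher and 149 (1.85%) lower. The mixed barcodes touched whole lists. They were defined by UMIs of the lists that follow, so the fall of those sums without them was built in. All 7 NK genes measured were past 1.5-fold higher in CKO with mixed barcodes, and 1 of 3 without. NK markers summed to 650 CPM in CKO and 213 CPM in WT, and to 101 and 84.8 CPM without mixed barcodes. T cell markers summed to 29.9 CPM in CKO and 69.9 CPM in WT, and to 16.9 and 57.0 CPM without them. The 6 neutrophil markers summed to 1221 CPM in CKO and 40.4 CPM in WT, and 1 CKO cell held 5125 of their 5472 UMIs. Without mixed barcodes they summed to 69.7 CPM in CKO and 40.5 CPM in WT. Myeloid markers summed to 975 CPM in CKO and 361 CPM in WT, with Siglech at 0 in CKO and Csf1r and Xcr1 at 0 in WT, and to 383 and 335 CPM without mixed barcodes.

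With mixed barcodes the 12 genes that led the CKO increase were Aldh7a1 and 11 others, most of them known from myeloid cells. Fcer1g, the signalling chain of Fc receptors in myeloid and NK cells, stood at 99.3 CPM in CKO and 13.8 CPM in WT, and at 4.35 and 3.08 CPM without them. Tyrobp, another such adaptor, stood at 190 and 81.9 CPM, and at 68.9 and 60.9 CPM without. Fyb, Alox5ap, Plbd1, Ifitm2 and Cebpb had ratios of 2.78 to 5.16 with mixed barcodes and of 0.126 to 0.982 without. Ifitm3, S100a4, Mpeg1 and Anxa2 had ratios of 1.26 to 2.39 without them, on 4 to 21 WT UMIs. Among gated cells with a Cd93 UMI, Fcer1g, Tyrobp, Alox5ap, Plbd1, Ifitm2, Ifitm3, S100a4 and Anxa2 had ratios below 1, while Cebpb stood at 7.40, Mpeg1 at 3.97 and Fyb at 2.51. Plasma cell RNA lay the other way, with Jchain, the joining chain of secreted immunoglobulin, at 264 CPM in CKO and 1405 CPM in WT and at 2.18 and 5.40 CPM without mixed barcodes. Jchain was part of the definition of those barcodes, so its fall was built in. Of 8 immunoglobulin constant genes 5 were lower in CKO with those barcodes, and 1 of 7 (Igha) without.

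The gene with the firmest increase was Aldh7a1, an aldehyde dehydrogenase, at 118 CPM in CKO and 13.1 CPM in WT, a ratio of 9.03 (6.44 to 13.0), with 0.943% of its CKO UMIs in the top cell. Its ratio was 11.5 in follicular and 7.72 in T-gated cells, so it was high in CKO in those classes too. Without mixed barcodes the next genes were Egr1, an immediate early factor induced by antigen receptor signals, at 99.4 CPM in CKO and 43.9 CPM in WT, a ratio of 2.26 (1.83 to 2.81). Nfkbid, an atypical IkappaB protein of B cell activation, stood at 46.9 CPM in CKO and 24.3 CPM in WT, a ratio of 1.93 (1.45 to 2.61). Klhl14, an adaptor of ubiquitin ligases known in B cells, stood at 101 and 66.7 CPM. Ccng2, a cyclin of quiescent cells, stood at 69.2 and 42.0 CPM, and Csnk1g3, Trim14, Edem3, Elavl1 and Klhl18 had ratios from 1.54 (Csnk1g3) to 2.0 (Klhl18). When cells were thinned to 2000 UMIs before the gate, Klhl18 stood at 1.04, Csnk1g3 at 1.28, Trim14 at 1.37, Ccng2 at 1.41 and Edem3 at 1.46, all short of 1.5-fold, and with mixed barcodes Csnk1g3 stood at 1.49. In follicular cells the ratio of Egr1 was 1.22, of Nfkbid 1.20, of Klhl14 1.21 and of Ccng2 1.18, and the difference between the classes was not tested. Among gated cells with a Cd93 UMI the ratio of Egr1 was 0.916 and that of Edem3 0.991.

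Jun was among them too, at 196 CPM in CKO and 126 CPM in WT without mixed barcodes, a ratio of 1.55 (1.36 to 1.77). With them the ratio was 1.05, and the top WT cell held 21.1% of the WT UMIs. The immediate early list was split, since Fosb stood at 80.8 CPM in CKO and 150 CPM in WT, a ratio of 0.540 (0.465 to 0.627), and Dusp1 at a ratio of 0.603. Of its 17 measured members without mixed barcodes 2 were higher and 2 lower, with a median log2 ratio of 0.00.

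Several genes of the type I interferon response, the antiviral program induced by interferon alpha and beta, were higher in CKO. Of 31 measured members of that list 7 were at least 1.5-fold higher in CKO and none lower, with a median log2 ratio of 0.30 against 0.06 over all genes. Of all measured genes 4.01% were higher and 1.91% lower. Without mixed barcodes 6 of 30 were higher, against 2.71% of all measured genes, with a median of 0.28 against 0.03. Among gated cells with a Cd93 UMI the median was 0.01, against 0.08 over all genes, so the list did not stand higher there. Without mixed barcodes Ifit3, an interferon-induced antiviral protein, stood at 29.8 CPM in CKO and 15.4 CPM in WT, a ratio of 1.93 (1.34 to 2.83). The Ifit3 ratio was short of 1.5-fold at 1.29 among cells with a Cd93 UMI and at 1.38 by the mean over cells. Oas1a, a sensor of double-stranded RNA, had a ratio of 2.47, Usp18, which removes the ISG15 tag, 2.08, Isg15 itself 1.64, Oasl2 1.61 and Oasl1 1.57. In follicular cells the ratio was 1.28 for Ifit3, 1.53 for Oas1a, 1.20 for Usp18 and 1.14 for Isg15. The top CKO cell held 8.96% of the CKO Ifit3 UMIs. Ifi208, an interferon-inducible gene not counted in this list, stood lower in CKO, as given below.

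Among genes that stood lower in CKO without mixed barcodes, Apoe stood at 36.0 CPM in CKO and 136 CPM in WT, a ratio of 0.265 (0.217 to 0.322). With mixed barcodes it stood at 73.7 CPM in CKO and 130 CPM in WT, and its ratio there was 0.704, short of 1.5-fold, when the gate asked for 1 Vpreb3 UMI. Single cells held up to 16.4% of its UMIs in CKO and 19.9% in WT. After thinning, Apoe was seen in 4.33% of transitional cells in CKO (3.19 to 5.74%) and 6.68% in WT (4.81 to 8.98%), and those intervals overlapped. The shares without mixed barcodes were 3.31% in CKO (2.30 to 4.59%) and 6.78% in WT (4.89 to 9.12%), which did not overlap. Gimap4 stood at 39.2 CPM in CKO and 85.9 CPM in WT, a ratio of 0.456 (0.370 to 0.561), against 0.833 in follicular cells. H2-Q7 and H2-Q6, nonclassical class I genes that share sequence with each other, had ratios of 0.469 and 0.507 in transitional and 0.584 and 0.706 in follicular cells. Ly6a, the surface antigen Sca-1, had a ratio of 0.611. With thinning before the gate Ly6a stood at 0.741, and among cells with a Cd93 UMI Gimap4 stood at 0.837, both short of 1.5-fold.

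Cxcr4, the chemokine receptor that holds immature cells in the bone marrow, stood at 41.1 CPM in CKO and 75.5 CPM in WT, a ratio of 0.544 (0.441 to 0.672). Its ratio was 0.564 in follicular and 0.532 in T-gated cells. Tsc22d3, a glucocorticoid-induced regulator, stood at 172 and 319 CPM, a ratio of 0.539, and its ratio was 0.583 in follicular and 0.723 in T-gated cells. Ccr6 was the other homing gene past 1.5-fold lower, at 0.571, among 13 measured homing genes of which none was higher. Ifi208, a member of the interferon-inducible HIN200 family, stood at 3.14 and 26.2 CPM, and it was as low in follicular cells at 0.131. Zc3h6, Ptms and Abhd16a had ratios of 0.412 to 0.502 on 67 or fewer WT UMIs before exclusion, except Abhd16a with 82. The Ptms ratio turned to 1.14 when cells were thinned to 2000 UMIs before the gate.

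Genes of the RPA complex and of the ATR checkpoint it activates had a median log2 ratio of 0.01 over 13 measured members, and none was past 1.5-fold, where 5.91% of all measured genes were. The median was 0.42 among cells with a Cd93 UMI and 0.18 with thinning before the gate. The replication list had -0.02 with 24 measured and none past 1.5-fold, in cells from which the gate had removed most cycling ones. Of 16 DNA repair genes 2 were lower, Xrcc5, which encodes Ku80, at 0.578 and Blm, a helicase, at 0.613, on 49 and 52 UMIs and on 29 and 29 UMIs in CKO and WT. The p53 list had 11 measured members with a median of 0.33, of which 2 were higher, and 10 with a median of 0.22 and none past 1.5-fold without mixed barcodes. B cell receptor signalling had a median of 0.10 over 22 genes, none past 1.5-fold.

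**Figure D5:**
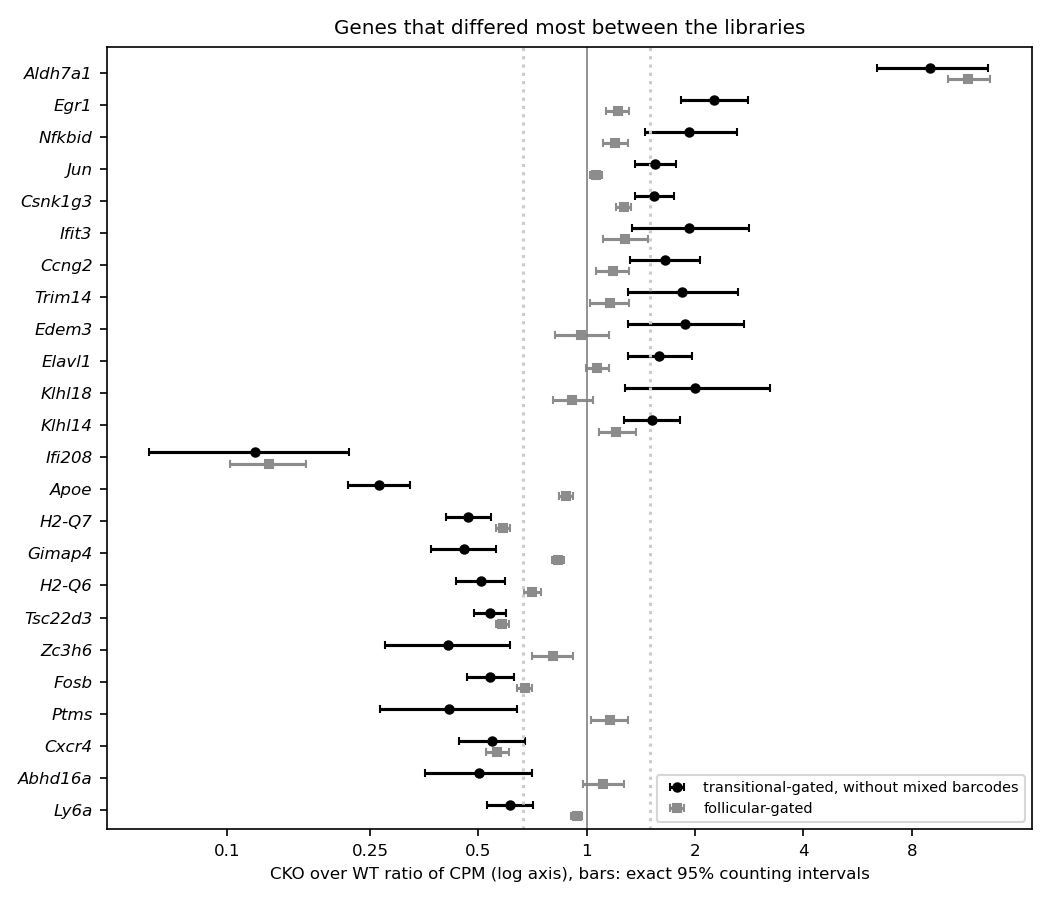
CKO over WT ratios of CPM for the 24 genes with the most secure differences in transitional-gated cells without mixed barcodes (black), and the same ratios in follicular-gated cells (grey), on a log axis. Bars are exact 95% counting intervals, the solid line marks a ratio of 1 and the dotted lines 1.5-fold; Aldh7a1 and Ifi208 lie far from 1 in both classes, while Apoe lies at 0.265 in transitional and 0.876 in follicular cells.

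A further gene, outside the rule by which genes were named and singled out after its values were seen, was present in the CKO library and at 0 in the WT library. The long noncoding RNA 4930597A21Rik (chr11:44586317-44591229, + strand, GENCODE vM21 on mm10) had 277 UMIs in 196 of the 1070 transitional cells of CKO and none in those of WT. Against a floor of 3 UMIs over the WT cells it was at least 56.6-fold higher. It stood at 34.3 CPM in follicular cells of CKO and 0.207 CPM in T-gated cells of CKO. The next gene on its strand is Ebf1 (chr11:44617317-45008091), whose CKO over WT ratio was 1.13 in transitional and 0.998 in follicular cells.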

How the data were processed

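Spleen immune cells were profiled with 10x Genomics 3′ libraries, 1 per genotype. The authors deposited raw UMI counts per gene and barcode, made with Cell Ranger 6.0.2 per the file headers. Cell Ranger 5.0.0, Seurat 4.0.3 and mm10 are credited to the submitters' processing notes. Libraries held 12958 CKO and 13291 WT barcodes with a lowest depth of 501 and 500 UMIs. Counts were summed over the gated cells of each library and given as CPM with exact Poisson 95% intervals. Ratios carry exact conditional binomial intervals and shares Clopper-Pearson intervals, which cover counting error only. No p-value was computed. A gene counted as past the threshold at a ratio of 1.5 among genes with at least 50 summed UMIs, and a count of 0 was set to a floor of 3 over the summed cells. List medians use log2 of CPM with a pseudocount of 1 CPM. The 12 genes named per direction ranked highest by the interval bound nearest 1, with at least 20 CPM and 20 UMIs in the higher group and 2% of the level in the class where the gene is highest. Immunoglobulin and T cell receptor segments, mitochondrial, ribosomal protein, listed Y-linked, Xist, Tsix, unnamed and gate genes were left out, while other X-linked genes stayed in (Akap17b, Gpr174 and Tsc22d3 were named). Up to 4 genes per list were also to be named. Doublets were scored with Scrublet (scanpy 1.11.5) at 0.8% per 1000 cells, marked by score rank and kept in the main values. Python 3.11.15, numpy 2.4.6 and scipy 1.17.1 were used. The members and the 31 gene lists were chosen with earlier results of these data known. Alternatives covered the gate, cell filters, scaling, the UMI minimum and the fold. A few genes are not reported here by name and remain in the list counts.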

Additional observations from a re-analysis of the deposited data

Results flagged for a closer look

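Iglv2, a lambda variable segment, stood in transitional cells at a CKO over WT ratio of 0.529 (0.297 to 0.935) and in follicular cells at 1.92, so the libraries moved in opposite directions in the 2 classes. The difference was not tested. It rested on 25 UMIs in CKO and 29 UMIs in WT, and a single WT cell held 69.0% of the WT UMIs. Without mixed barcodes the transitional ratio was 1.67 (0.751 to 4.09).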

How the results depend on the processing

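No paired analysis was possible because each genotype had 1 library, so no replicate could be left out either. Under the alternatives the CKO over WT ratio of the share of retained cells was 2.21 with a Cd93 UMI also required and 1.31 without T cells in the denominator, against 1.78, and that of the share of B-gated cells 1.61 with Cd93, against 1.29. Among cells with a Cd93 UMI 100 genes were lower in CKO, against 158. Leaving out mixed barcodes, an alternative chosen after seeing the data, gave 218 genes higher, against 332. At least 200 summed UMIs gave 62 genes higher and 26 lower, at least 10 gave 1009 and 616, and a fold of 2 gave 91 and 29. List members past the fold numbered 36, and 23 without Scrublet-marked cells, 16 with thinning before the gate, 17 without mixed barcodes, 23 by the mean over cells, 11 at 200 UMIs and 61 at 10 UMIs. Of all measured genes 5.91% were past the fold, and 4.56% without mixed barcodes. The measured members of all lists were not totalled, so these counts cannot be read as an excess over that share. For transitional over follicular cells a fold of 2 gave 152 higher and 107 lower, and 200 UMIs 227 and 203, against 404 and 331. For the Cd93 split, thinning gave 28 genes lower, a fold of 2 gave 3 higher and 11 lower, and 200 UMIs 2 and 2, against 20 and 67. Fewer genes reach 200 UMIs, and the cause of the other changes was not tested.

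The direction of some list medians (log2, CKO over WT) reversed. The BCL2 survival list turned to -0.41 with Cd93, -0.05 without Scrublet-marked cells, -0.19 with thinning, -0.22 without mixed barcodes, -0.11 by the mean over cells and -0.13 at 200 UMIs. Without mixed barcodes B-1 genes turned to -0.12, immunoglobulin constant genes to 0.01, myeloid markers to -0.00 and plasma markers to 0.13. With thinning the constant genes turned to 0.06 and plasma markers to 0.18, and plasma markers to 0.08 by the mean over cells. With Cd93, NK markers turned to -0.80 and myeloid markers to -0.18, and with 1 Vpreb3 UMI allowed neutrophil markers to -2.11. Among genes, the CKO over WT ratio with Cd93 turned to 0.363 for Alox5ap, 0.294 for Anxa2, 0.991 for Edem3, 0.916 for Egr1, 0.846 for Fcer1g, 0.264 for Ifitm2, 0.681 for Ifitm3, 0.617 for Plbd1, 0.251 for S100a4 and 0.573 for Tyrobp. With thinning it turned to 0.666 for Alox5ap, 0.705 for Anxa2, 0.909 for Cebpb, 0.927 for Fyb, 0.799 for Plbd1 and 1.14 for Ptms. Without mixed barcodes it turned to 0.471 for Alox5ap, 0.982 for Cebpb, 0.285 for Fyb, 0.732 for Ifitm2 and 0.126 for Plbd1, and Ly6c2 turned to 1.66 in the Cd93 split of WT. Of the other values for genes and lists, 1014 moved by less than their margin (the counting interval, or 0.1 on the log2 scale for a list) and 174 by more, without reversing. Scaling shifted the median of all genes by at most 0.06. Genes near 50 UMIs have wide counting intervals, and mouse to mouse spread could not be seen.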

Other observations

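Of 6 measured plasma cell markers 4 were at least 1.5-fold higher in transitional than in follicular cells of both libraries, with a median log2 ratio of 1.16 in CKO and 1.28 in WT. Of all measured genes 4.06% were higher. Without mixed barcodes 1 of 5 markers was higher, against 4.43% of all measured genes, with medians of 0.15 and 0.06. That one was Derl3, of the protein export pathway of the endoplasmic reticulum, 4.93 times as high in CKO (3.27 to 7.42) and 2.68 times in WT (1.5 to 4.59). Slpi, a secreted protease inhibitor that was then under the UMI minimum, stood at 8.47 CPM in transitional and 0.685 CPM in follicular cells of CKO and at 9.25 and 0.929 CPM in those of WT. Jchain was at 0.932 (0.406 to 1.89) in CKO and 1.03 (0.546 to 1.82) in WT, among cells limited to under 20 Jchain UMIs by the exclusion. The part of any remaining plasma cell RNA in these levels was not tested. Gadd45b, a stress-induced gene, was 2.11 times as high in transitional cells of CKO and 2.38 times in those of WT without mixed barcodes, and Lig4, the ligase of V(D)J joining, 2.11 and 2.01 times.

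Eif2s3y, a Y-linked translation factor, stood at 24.8 CPM in CKO and 100 CPM in WT transitional cells, a ratio of 0.247 (0.197 to 0.310), and its ratio was 0.217 in follicular and 0.244 in T-gated cells. Ddx3y, on the same chromosome, had a ratio of 1.13 (0.948 to 1.36), and Xist was at 0 in the transitional cells of both libraries.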
